A study of Mus musculus with 6 samples.

Results

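Cells show samples of their own proteins on their surface in MHC class I molecules, each made of a heavy chain (H2-K1 or H2-D1 in mice), the light chain B2m and a short peptide. The peptides are cut by the proteasome, whose interferon-inducible form carries the catalytic subunits Psmb8, Psmb9 and Psmb10, are pumped into the endoplasmic reticulum by Tap1 and Tap2, and are fitted to the heavy chain with the help of tapasin (Tapbp). Nlrc5 is a transcriptional activator of many of these genes and works at a conserved promoter module together with the RFX, CREB and NF-Y proteins. Class I molecules are read by cytotoxic T cells and natural killer cells, and blood stem and progenitor cells carry them too.

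These 10 genes were the subject here, chosen by name as members of the class I pathway. No measured value enters that rule, but the choice was made with earlier results of these data known. All 10 were measured, out of 20059 genes on the arrays. The array listed 151 probe sets under 1 of their symbols alone, and 147 of them were bright enough to be used, which here means above the median level of all probe sets (50th percentile). Nlrc5 included 4 probe sets listed under its older name AI451557. A further 10 probe sets that named H2-D1 together with another gene, 4 of them H2-K1, were not used. A gene value is the mean log2 intensity of its probe sets.

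The cells were KLS cells, a bone marrow fraction of mice that is positive for the surface proteins Kit and Sca-1, negative for markers of mature blood lineages and rich in stem and progenitor cells, with 3 arrays of Wild-type mice and 3 of Dnmt3a+/- mice. The latter carry 1 disrupted copy of Dnmt3a, an enzyme that places new DNA methylation, and the series as a whole concerns how that state prepares blood-forming cells for myeloid malignancy. For strain, age, sex and treatment the labels have no entry. They are also silent on whether each array stands for its own animal, so the p-values below reflect only how far these samples scatter, and part of that scatter may be technical. In bulk RNA, fewer cells of a type and less RNA per cell cannot be told apart.

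Dnmt3a itself was lower on every Dnmt3a+/- array, with a log2 difference of -0.31 (SE 0.12) that did not pass after adjustment (limma, adjusted p = 0.631). Kit was bright on all arrays and lower without overlap on the Dnmt3a+/- arrays (-0.11, SE 0.10), and Ly6a, which encodes Sca-1, differed by -0.015 (SE 0.13). Dnmt3a+/- replicate 2 stood apart from the other arrays, with a mean correlation across genes of 0.904 with them where the others had 0.938 to 0.949. On all arrays together, the brightest 10% of genes had a median difference of -0.12 between genotypes and the dimmest 10% one of 0.082. All 10 class I genes lay above the median gene level, from percentile 73.0 (Tap2) to 99.9 (B2m). H2-K1, H2-D1, B2m, Tapbp, Psmb8 and Psmb10 were among the brightest 10% of genes. Values without replicate 2, and for some results after a scaling that evens out such trends with level (cyclic loess), are given below.

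The class I genes had small negative differences between Dnmt3a+/- and wild-type cells, none of which passed the test, and Tap2 and Psmb10 were close to 0. All 10 had a negative Dnmt3a+/- minus wild-type difference, where 54.3% of all genes did. The median of the 10 differences was -0.16 on the log2 scale (-10.8% in level), beside -0.023 over all genes and -0.12 over the brightest 10%. For 5 of the 10 genes, H2-K1, H2-D1, Tap1, Psmb9 and Nlrc5, every Dnmt3a+/- array lay below every wild-type array, where this was so for 9.05% of all genes. With the median in place of the mean of probe sets the count was 2 (B2m and Psmb9, where 7.85% of all genes were so), and with a brightness filter at the 75th percentile it was 3 (H2-K1, H2-D1 and Nlrc5, 9.43%). None was higher in that way in the reported values, where 6.74% of all genes were. After adjustment over all genes, 0 of 10 members and 0 of 20059 genes passed 0.05 (limma, percent called 0). At an unadjusted p under 0.05 there was 1 member, Psmb9, where 4.57% of all genes were lower at that level and 2.92% were higher.

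The median of the members relative to each gene's wild-type mean was -0.020, -0.0053 and 0.032 on the wild-type arrays and -0.090, -0.30 and -0.075 on Dnmt3a+/- replicates 1, 2 and 3. The groups did not overlap, and replicate 2 lay furthest from wild-type. Without that array the median difference was -0.095, and 8 of 10 genes were negative. The same 5 genes were then non-overlapping, where fewer arrays left 12.5% of all genes so. After cyclic loess the median was -0.14, 8 of 10 were negative and these 5 genes again did not overlap, while Tap2 (0.014) and Psmb10 (0.010) turned positive.

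**Figure D1:**
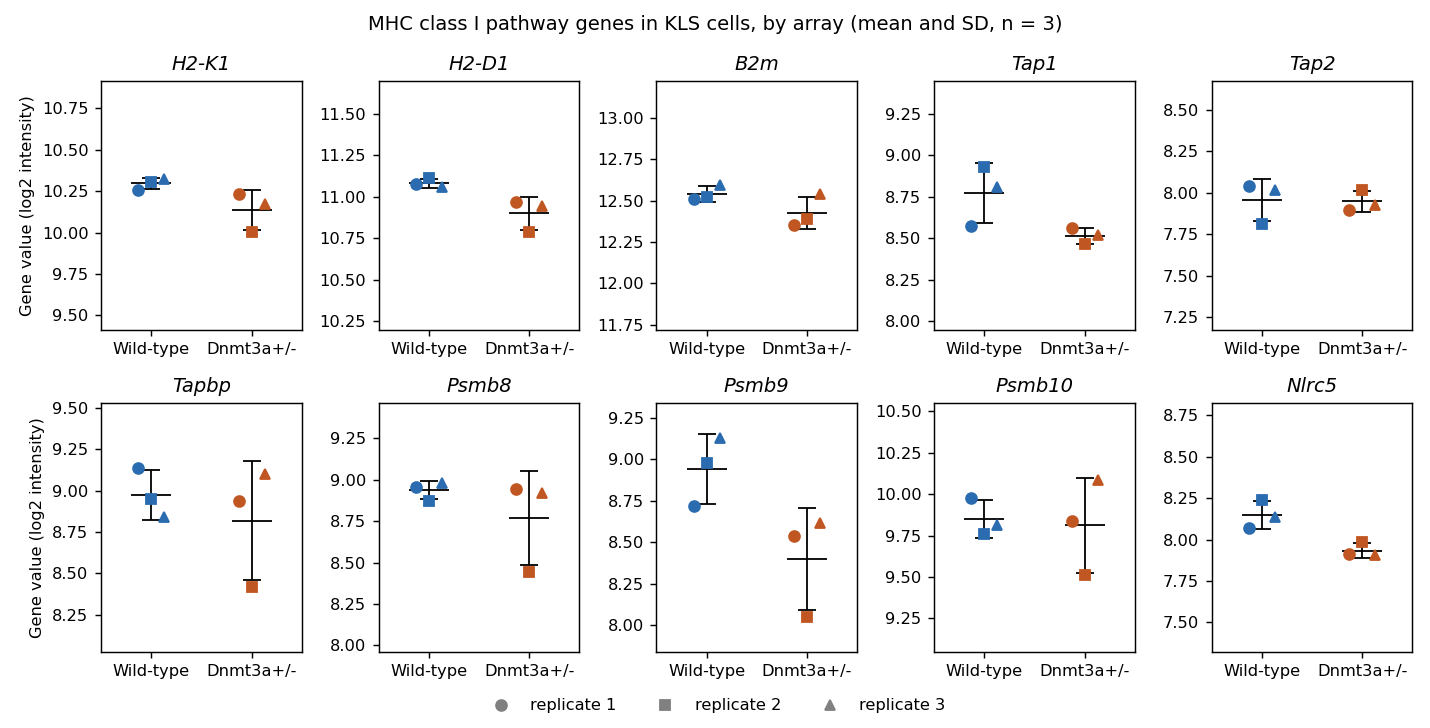
Gene values (log2 intensity, y axis, each panel spanning the same height of log2 units) of the 10 class I genes on the 6 arrays, with a marker shape per replicate and bars for the mean and SD of each genotype (n = 3). H2-K1, H2-D1, Tap1, Psmb9 and Nlrc5 show no overlap between wild-type and Dnmt3a+/- arrays; Dnmt3a+/- replicate 2 is the lowest array in several panels.

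The heavy chains were tightly measured. H2-K1 read 10.26, 10.31 and 10.33 on the wild-type arrays and 10.23, 10.004 and 10.17 on the Dnmt3a+/- arrays. All Dnmt3a+/- values were below all wild-type values, by a gap of 0.030 between the nearest arrays. The difference was -0.16 (SE 0.11, 95% confidence interval -0.42 to 0.092; limma, adjusted p = 0.672). H2-D1 read 11.07, 11.11 and 11.06 in wild-type cells and 10.97, 10.79 and 10.94 in Dnmt3a+/- cells. The groups again did not overlap, here with a gap of 0.090, and the difference was -0.18 (SE 0.11, 95% confidence interval -0.43 to 0.063; limma, adjusted p = 0.651). The wild-type SDs were 0.034 for H2-K1 and 0.026 for H2-D1, and the Dnmt3a+/- SDs 0.12 and 0.10 (n = 3). Without Dnmt3a+/- replicate 2 the differences were -0.095 for H2-K1 and -0.13 for H2-D1, and after cyclic loess -0.13 and -0.15. With the median of probe sets H2-D1 differed by -0.048, and the groups of both genes overlapped. Heavy-chain genes are near copies of each other, so a probe set listed under one of them may also read another.

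B2m, the light chain that every class I molecule needs, read 12.51, 12.52 and 12.59 in wild-type cells and 12.35, 12.39 and 12.54 in Dnmt3a+/- cells. Replicate 3 of the Dnmt3a+/- group lay within the wild-type range, so the groups overlapped. The difference was -0.11 (SE 0.11, 95% confidence interval -0.36 to 0.13; limma, adjusted p = 0.728). It was -0.096 without Dnmt3a+/- replicate 2 and -0.092 after cyclic loess. All 5 of its probe sets were on the negative side.

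The promoters of these 3 genes are shown because they hold a CREB motif and a Y box, which are parts of the module at which Nlrc5 acts. The site of the RFX proteins was not searched for. Sequences are from RefSeq (GRCm38.p6), the 250 bases before the annotated start, read 5′ to 3′ on the gene's strand, and 8 of the 10 members had an entry in the table. H2-K1 has 2 annotated starts there, and the window of the one farther upstream is shown. Capitals mark 3 motifs searched on both strands: the interferon-stimulated response element core, the CREB motif TGACG and the Y box, which is CCAAT on one strand and ATTGG on the other.
H2-K1, chr17:34000348-34000597, minus strand: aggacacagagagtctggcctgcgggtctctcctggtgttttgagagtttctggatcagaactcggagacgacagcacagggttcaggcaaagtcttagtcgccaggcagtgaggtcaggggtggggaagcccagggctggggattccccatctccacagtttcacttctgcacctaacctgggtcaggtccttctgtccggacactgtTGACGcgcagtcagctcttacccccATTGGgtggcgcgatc
H2-D1, chr17:35262844-35263093, plus strand: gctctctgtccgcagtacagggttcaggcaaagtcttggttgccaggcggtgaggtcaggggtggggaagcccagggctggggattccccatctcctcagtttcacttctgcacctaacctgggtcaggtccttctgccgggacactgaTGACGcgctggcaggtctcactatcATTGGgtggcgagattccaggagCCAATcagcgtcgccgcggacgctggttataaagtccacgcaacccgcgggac
B2m, chr2:122147437-122147686, plus strand: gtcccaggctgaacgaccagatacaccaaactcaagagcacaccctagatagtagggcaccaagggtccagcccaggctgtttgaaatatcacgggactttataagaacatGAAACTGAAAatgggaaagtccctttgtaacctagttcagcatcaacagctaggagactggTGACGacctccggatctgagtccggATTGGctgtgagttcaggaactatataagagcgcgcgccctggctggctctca

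In all 3, a TGACG is followed after 20 bases by an ATTGG, on the same strand. That spacing was noticed in these sequences and then searched for in all promoters. It occurred in 30 of 32851 promoter windows (0.0913%), belonging to 26 of 27025 genes, among them H2-K1, H2-D1, B2m and 1 other class I gene, H2-M3. Windows of the same length held a TGACG in 17.8% and a CCAAT in 33.8% of cases, on either strand. Of the 8 members with a promoter entry, 5 held a TGACG and 6 a CCAAT. Tap1 and Psmb9 also held both. The aligned windows of H2-K1 and H2-D1 were identical at 166 of 190 bases (87.4%), and both held GGGGATTCCC, a match to a loose kappa B pattern that 45.8% of all windows held. Of the 8 members with a promoter entry, 1, B2m, held the response element core, which 2.98% of all windows held. H2-M3, the other carrier of the spaced pair, had a difference of 0.12, on the other side of 0 from the 3 members. Matches describe the letters in these windows and were not tested as binding sites.

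Of the transporter genes, Tap1 had groups that did not overlap and Tap2 had groups that did. Tap1 read 8.58, 8.93 and 8.81 in wild-type cells and 8.56, 8.47 and 8.52 in Dnmt3a+/- cells. The groups did not overlap, but wild-type replicate 1 lay only 0.016 above the nearest Dnmt3a+/- array. The difference was -0.26 (SE 0.12, 95% confidence interval -0.54 to 0.030; limma, adjusted p = 0.631). Of its 19 probe sets, 16 were on the negative side. Tap2, the partner with which Tap1 forms the transporter, read 8.04, 7.81 and 8.02 in wild-type cells and 7.90, 8.02 and 7.93 in Dnmt3a+/- cells. The Dnmt3a+/- values lay inside the wild-type range, and the difference was -0.0067 (SE 0.11, 95% confidence interval -0.27 to 0.26). Its 18 probe sets divided evenly, 9 on each side. Tapbp read 9.14, 8.95 and 8.84 in wild-type cells and 8.94, 8.42 and 9.10 in Dnmt3a+/- cells. The groups overlapped, with Dnmt3a+/- replicate 2 far below the other arrays, and the difference of -0.16 (SE 0.19) became 0.044 without that array.

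Psmb9 had the largest difference of the 10 genes in size. It read 8.72, 8.98 and 9.13 in wild-type cells and 8.54, 8.05 and 8.61 in Dnmt3a+/- cells. The groups did not overlap, with replicate 2 again the lowest. The difference was -0.54 (SE 0.18, 95% confidence interval -0.96 to -0.12), a fold of 0.687, with an exact two-sided permutation p of 0.1, the smallest that 3 against 3 arrays allow. Its unadjusted p of 0.0177 ranked 461 among all genes (limma), and it did not pass after adjustment (limma, adjusted p = 0.631). Without Dnmt3a+/- replicate 2 the difference was -0.37 (SE 0.15). With the brightness filter at the 75th percentile it was -0.30 (SE 0.18), and the groups overlapped. Probe set 4430718, described below, passed the filter at the median only through its wild-type values and enters the difference of -0.54.

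Psmb9 and Tap1 lie head to head on chromosome 17, with 225 bases between their annotated starts. This stretch, chr17:34187331-34187555 (GRCm38.p6), is shown in the direction of Tap1 because it is the sequence before the start of both genes. Capitals mark the same motifs as above.
Psmb9-Tap1 stretch: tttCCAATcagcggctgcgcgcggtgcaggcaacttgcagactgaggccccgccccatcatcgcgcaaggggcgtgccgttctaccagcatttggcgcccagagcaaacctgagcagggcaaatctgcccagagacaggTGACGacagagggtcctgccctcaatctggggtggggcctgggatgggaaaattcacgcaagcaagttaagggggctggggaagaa
It held 1 CCAAT and 1 TGACG, not in the spaced arrangement of the chains, and no response element core. Both genes beside it were non-overlapping and lower, where 9.05% of all genes were so. With the 75th percentile filter the groups of both overlapped, and with the median of probe sets those of Tap1 did. Any part of this stretch in the differences was not tested.

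The other inducible subunits were not separated. Psmb8 read 8.96, 8.87 and 8.98 in wild-type cells and 8.94, 8.44 and 8.92 in Dnmt3a+/- cells. Only replicate 2 lay below the wild-type range, and the difference of -0.17 (SE 0.15) was -0.0044 without it. Psmb10 read 9.98, 9.76 and 9.81 in wild-type cells and 9.84, 9.51 and 10.08 in Dnmt3a+/- cells. Dnmt3a+/- arrays lay below, within and above the wild-type range, and the difference was -0.037 (SE 0.16, 95% confidence interval -0.41 to 0.33).

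Each inducible subunit replaces a constitutive one, Psmb8 the subunit Psmb5, Psmb9 Psmb6 and Psmb10 Psmb7, and comparing the partners within an array removes what both share on it. The constitutive genes differed by -0.23 (SE 0.15) for Psmb5, 0.13 (SE 0.15) for Psmb6 and -0.083 (SE 0.22) for Psmb7, all with overlapping groups. On the arrays other than Dnmt3a+/- replicate 2 they differed by -0.11, 0.28 and 0.12, and Psmb6 was then higher without overlap. Psmb9 minus Psmb6 was -1.56, -1.45 and -1.15 on the wild-type arrays and -1.98, -2.11 and -2.08 on the Dnmt3a+/- arrays. The groups lay well apart, with SDs of 0.21 and 0.069 (n = 3), and replicate 2 was no longer set apart from the other Dnmt3a+/- arrays. The difference between genotypes was -0.67 (exact two-sided permutation p = 0.1, adjusted p = 0.3 over the 3 pairs), and -0.64 without Dnmt3a+/- replicate 2, made up of -0.37 for Psmb9 and 0.28 for Psmb6. Psmb8 minus Psmb5 differed by 0.064 (exact permutation p = 0.6, adjusted p = 0.9) and Psmb10 minus Psmb7 by 0.046 (exact permutation p = 0.9, adjusted p = 0.9). The genotypes overlapped for both. The within-array values show unequal change of the partners, not which of them moved.

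**Figure D2:**
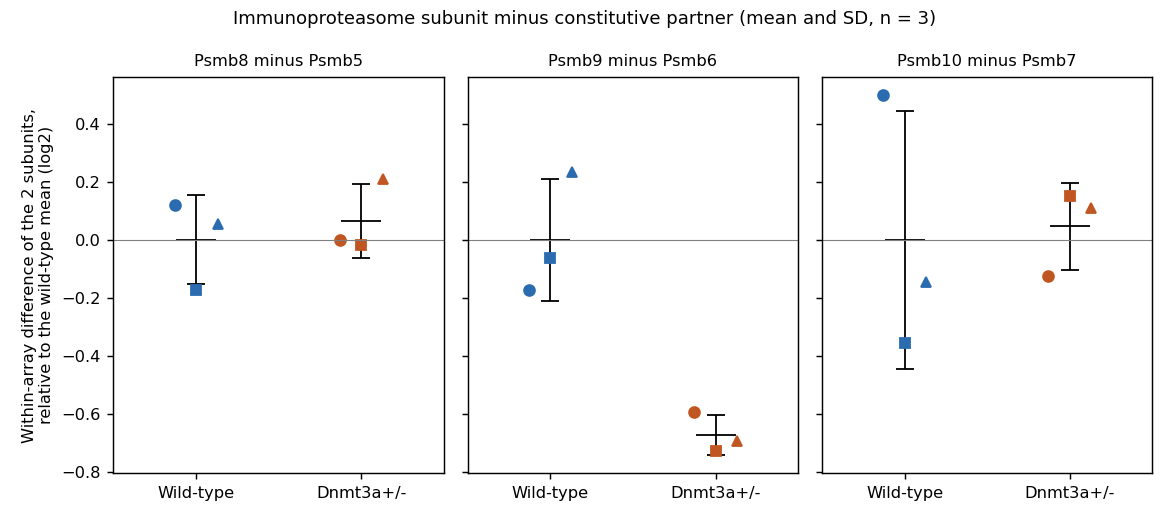
Log2 value of each inducible proteasome subunit minus that of its constitutive partner on the same array, relative to the wild-type mean (y axis), with a marker shape per replicate and bars for the mean and SD (n = 3). The pair of Psmb9 and Psmb6 is 0.67 lower in Dnmt3a+/- cells with no overlap, while the other pairs differ by 0.064 and 0.046 and overlap.

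Nlrc5 read 8.07, 8.24 and 8.13 in wild-type cells and 7.91, 7.98 and 7.90 in Dnmt3a+/- cells. All Dnmt3a+/- arrays lay below all wild-type arrays, with a gap of 0.087. The difference was -0.21 (SE 0.11, 95% confidence interval -0.46 to 0.028; limma, adjusted p = 0.631), and it was -0.24 without Dnmt3a+/- replicate 2 and -0.19 after cyclic loess. Of the 5 non-overlapping genes, Nlrc5 and Tap1 (-0.23) moved least without that array.

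**Figure D3:**
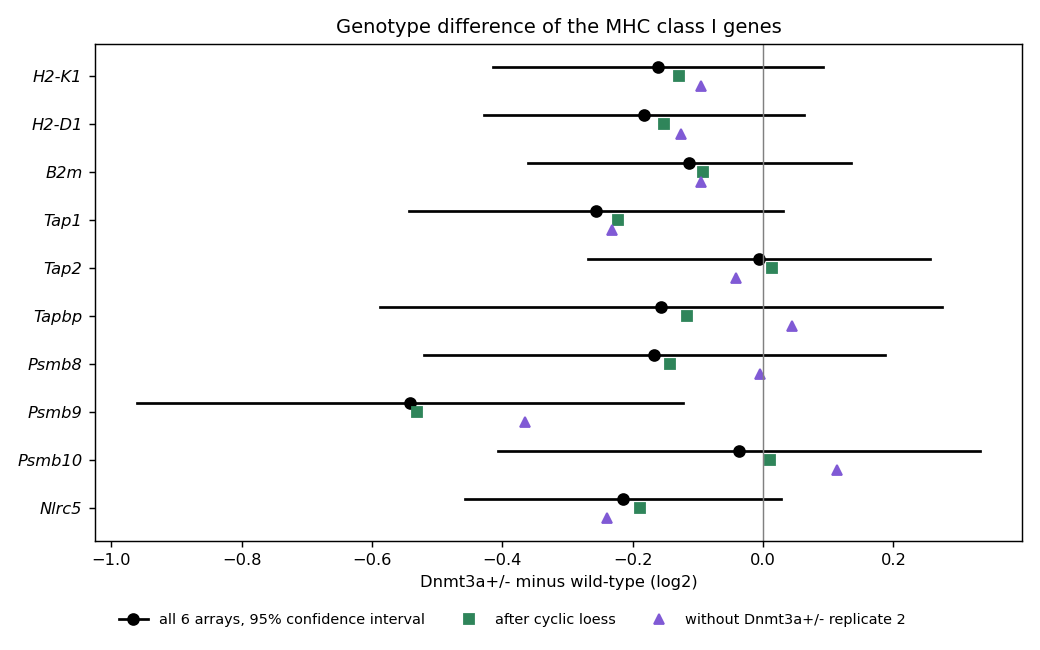
Dnmt3a+/- minus wild-type difference (log2, x axis) of each class I gene with all 6 arrays and its 95% confidence interval (black), after cyclic loess (squares) and without Dnmt3a+/- replicate 2 (triangles). Only the interval of Psmb9 lies wholly below 0, and Tapbp, Psmb8 and Psmb10 move to 0.044, -0.0044 and 0.11 without that array.

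Single probe sets showed how evenly or unevenly the signal of each gene differed between genotypes. Of the 147 probe sets, 109 were on the negative side (74.1%), where 50.3% of all 628415 probe sets were. The genotypes did not overlap for 18 on the lower side (12.2%), where 6.1% of all probe sets did so, and for 2 on the higher side, where 6.31% did. At an unadjusted p under 0.05 there were 9, all lower (6.12%), where 3.41% of all probe sets were lower at that level (limma). That count was 5 with the replicate number as a block, 4 without wild-type replicate 2 and 5 without wild-type replicate 3. The 9 included 4430718 (Psmb9) and 5377060 (Nlrc5), whose Dnmt3a+/- means lay under the filter level. None passed after adjustment (limma, 0 of 628415, percent called 0). Probe sets of 1 gene share their RNA and are not replicates.

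In Psmb9 the differences ran from -2.86 to 0.075 around a median of -0.43, with 14 of 16 negative. Probe set 4430718 stood apart from the rest. It read 8.28, 7.21 and 8.56 in wild-type cells and 5.89, 3.29 and 6.28 in Dnmt3a+/- cells, without overlap (difference -2.86, SE 0.78). Without it the Psmb9 difference was -0.39 (SE 0.16) and its genotypes overlapped, an alternative chosen after the values were seen. The probe sets of the gene with a mean level over the 6 arrays above log2 11 were 5020377, 5172102, 4547919 and 4627300. They differed by -0.42, -0.33, -0.19 and 0.032, all with overlapping groups.

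Nlrc5 had the most probe sets, with 23 of 31 probe sets negative and differences from -1.18 to 0.72. The lowest, 5377060, had a Dnmt3a+/- mean of 5.79, under the filter level of log2 5.89. It was kept through its wild-type mean of 6.97. Probe set 4451941 read 9.07, 9.31 and 9.23 in wild-type cells and 8.29, 8.43 and 8.49 in Dnmt3a+/- cells, a clear separation (difference -0.80, SE 0.17). The only non-overlapping probe sets on the higher side among the members, 5216816 at 0.72 (SE 0.33) and 5105235 at 0.47 (SE 0.20), were also listed for Nlrc5. The median probe-set difference was -0.25 for Tap1 and -0.25 for Nlrc5, -0.18 for H2-K1 and -0.12 for H2-D1. It was 0.0014 for Tap2 and 0.0055 for Psmb10.

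**Figure D4:**
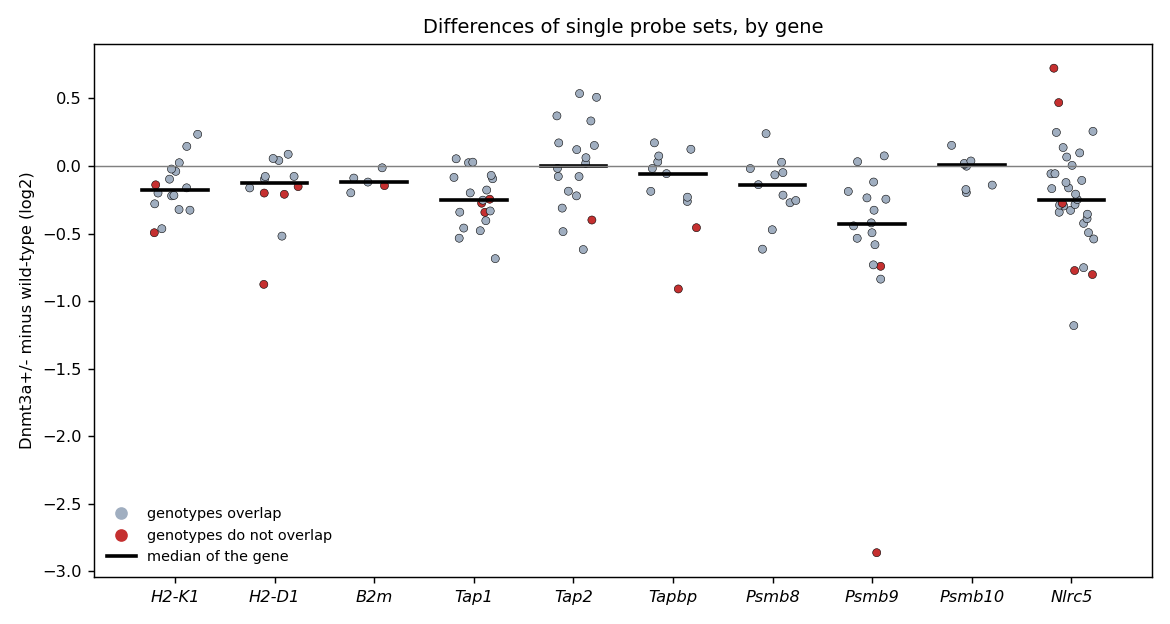
Dnmt3a+/- minus wild-type difference (log2, y axis) of each of the 147 probe sets by gene, red where the 3 arrays of one genotype all lie beyond those of the other, with a bar at the median of each gene. Psmb9 has 1 probe set at -2.86 far below its median of -0.43, and Nlrc5 has the only red points above 0.

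The other genes of the pathway were taken by function, 85 in all in 7 lists, of which 70 were measured. No member of them passed after adjustment (limma, 0 of 70), in either direction. Of the 70, 50 had a negative difference (54.3% of all genes did), 15 were non-overlapping and lower (21.4%, where 9.05% of all genes were) and 2 were non-overlapping and higher (6.74% of all genes). At an unadjusted p under 0.05 there were 8, all lower, where 4.57% of all genes were lower and 2.92% higher at that level (limma). Leaving out Dnmt3a+/- replicate 2, 40 of the 70 were negative (51.5% of all genes), 17 were non-overlapping and lower (12.5% of all genes) and 6 non-overlapping and higher (10% of all genes), and 4 lower and 1 higher had an unadjusted p under 0.05 (limma).

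Among the transcription regulators of class I genes, 11 of 14 measured genes were on the negative side (median -0.17). In this list 4 were non-overlapping and lower, where 9.05% of all genes were. Rfx5, the DNA-binding subunit of the RFX complex with which Nlrc5 works, read 7.95, 7.93 and 7.97 in wild-type cells and 7.69, 7.68 and 7.67 in Dnmt3a+/- cells. The arrays of each genotype lay within a few hundredths of each other (SDs 0.023 and 0.011, n = 3), and the difference was -0.27 (SE 0.098; limma, adjusted p = 0.631). Irf1, an interferon-induced activator of class I genes, read 8.31, 8.48 and 8.37 in wild-type cells and 8.13, 7.81 and 8.10 in Dnmt3a+/- cells, without overlap. Its difference was -0.37 (SE 0.13), and that of its relative Irf2, also without overlap, -0.25 (SE 0.11). The fourth was the CRE-binding Creb1 at -0.19 (SE 0.12), named because its groups did not overlap. Without Dnmt3a+/- replicate 2 the list had a median of -0.056, with 9 of 14 negative, and Creb1 was at -0.11.

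For peptide loading and trimming, 12 of 15 were negative (median -0.20) and 5 were non-overlapping and lower (9.05% of all genes were). Tapbpl, a tapasin-related editor of peptides, differed by -0.41 (SE 0.18; its groups overlapped after a second quantile normalization), the aminopeptidase Lnpep by -0.39 (SE 0.13) and the cytosolic aminopeptidase Npepps by -0.26 (SE 0.11). The others were Blmh (-0.30) and Erap1 (-0.22), the trimming enzyme of the endoplasmic reticulum, both named because their groups did not overlap. Without Dnmt3a+/- replicate 2 the list's median was -0.035, with 9 of 15 negative and 5 non-overlapping and lower (12.5% of all genes were so on those arrays). Tapbpl was then at -0.21 and Blmh at -0.17.

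Other class I heavy chains had no common direction, with 10 of 20 measured genes on each side (median -0.0026). On all arrays 3 of the 20 were non-overlapping and lower (9.05% of all genes were) and 1 higher (6.74%). The 3 lower ones were those with the smallest p, a choice that favours separated groups. H2-T23, the mouse gene of the Qa-1 molecule read by natural killer cells, read 9.38, 9.23 and 9.13 in wild-type cells and 9.002, 8.72 and 8.98 in Dnmt3a+/- cells. Its difference was -0.35 (SE 0.13), while H2-T24 differed by -0.53 (SE 0.20) and H2-T10 by -1.01 (SE 0.34), the last on 3 probe sets. With Dnmt3a+/- replicate 2 left out they differed by -0.26, -0.34 and -0.62. On those arrays 4 genes of the list were non-overlapping and lower (12.5% of all genes) and 3 higher (10%). H2-Q10 was non-overlapping and higher by 0.071 (SE 0.099), and its groups overlapped after cyclic loess.

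Turnover and quality control genes were negative in 7 of 8 (median -0.17), with 3 non-overlapping and lower (9.05% of all genes were). Vcp, the ATPase that extracts proteins from the endoplasmic reticulum, differed by -0.31 (SE 0.16) and its partner Derl1 by -0.29 (SE 0.14). The list's median was -0.079 without Dnmt3a+/- replicate 2, with Vcp at -0.14 and Derl1 at -0.16. On those arrays 4 genes were non-overlapping and lower (12.5% of all genes) and 1 higher (10%). The ubiquitin ligase gene Marchf9 was higher by 0.21 (SE 0.12), without overlap, where 6.74% of all genes were so. Its groups overlapped after cyclic loess or a second quantile normalization. Proteasome activators and assembly factors were negative in 7 of 8 (median -0.074) with all groups overlapping, and without Dnmt3a+/- replicate 2 the median turned to 0.071, with 2 of 8 negative. Those with the smallest p were Psme4 (-0.21, SE 0.12), the assembly factor Pomp (0.15, SE 0.12) and Psmg1 (-0.18, SE 0.25), and without that array Pomp was higher without overlap (0.22) and Psmg1 was at 0.063. Only 2 of 9 listed ligands of the receptor NKG2D were measured, H60c at 0.053 (SE 0.17) and H60b at -0.039 (SE 0.25).

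**Figure D5:**
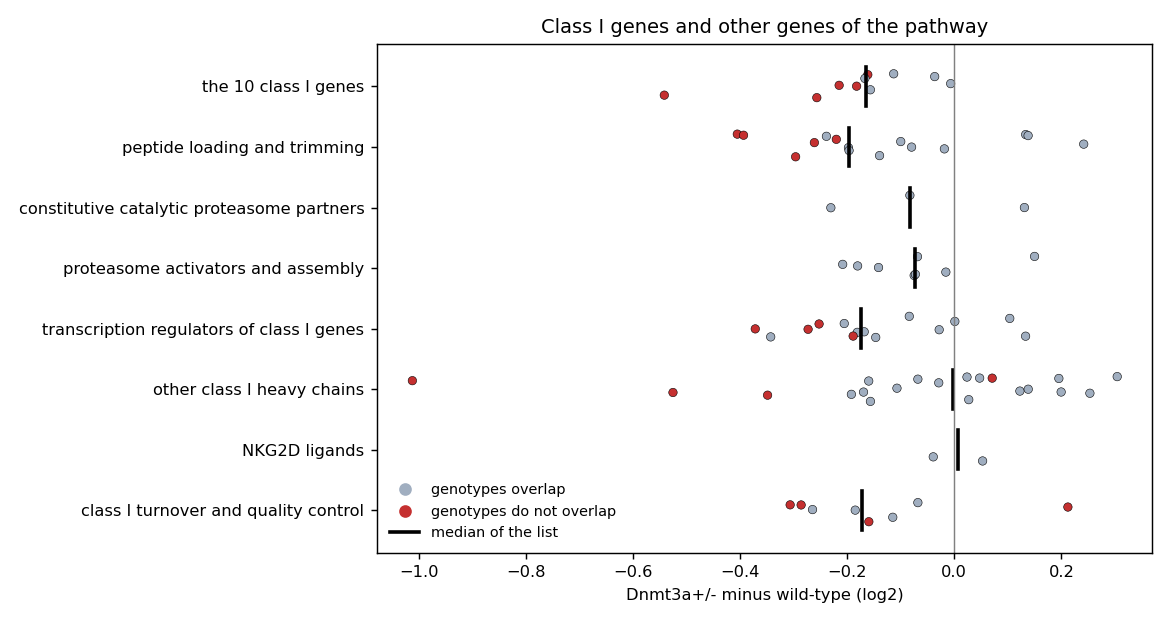
Dnmt3a+/- minus wild-type difference (log2, x axis) of the 10 class I genes and of the measured genes in each of the 7 pathway lists, red where the genotypes do not overlap, with a bar at each median. Red points lie mostly below 0, and the other heavy chains lie on both sides of 0, from -1.01 to 0.30.

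Marker genes of cells that the sort should remove were examined because mature immune cells carry much class I. Dendritic cell markers, all 8 of 8 measured, had a summed intensity of 2901 to 3052 in wild-type cells and 2494 to 2782 in Dnmt3a+/- cells, without overlap. Of the list, 7 of 8 were on the lower side (median -0.025), with Flt3, which progenitors also express, at -0.32 (SE 0.16) and Itgax next at -0.11 (SE 0.15). The sums add linear intensities, and Flt3 was the brightest of the 8 (wild-type mean log2 10.42, Bst2 next at 9.37). No dendritic marker was non-overlapping by itself, and Flt3 was also on the KLS list, so it entered both sums. KLS markers had 9 of 10 measured and summed to 7982 to 8549 in wild-type cells and 7239 to 7709 in Dnmt3a+/- cells, also without overlap. The summed levels of the other lists overlapped between genotypes, with 10 of 10 macrophage, 6 of 7 B cell, 9 of 9 T and NK cell, 9 of 11 neutrophil, 3 of 6 erythroid, 5 of 5 mast cell and 7 of 7 stromal markers measured. Macrophage markers were on the higher side in 8 of 10 (median 0.17). Vcam1 (0.78, SE 0.29), Adgre1 (0.42, SE 0.15) and C1qb (0.17, SE 0.11) were higher without overlap, and Csf1r was lower without overlap (-0.73, SE 0.19). Neutrophil markers were on the higher side in 8 of 9 (median 0.30), with Retnlg (0.98, SE 0.22) and Mmp8 (0.64, SE 0.20) higher without overlap. In the other lists of mature or stromal cells, Cd22, Cd3e, Mcpt8, Col1a1 and Col1a2 were higher without overlap. Klrd1, Pecam1 and Cxcl12 were lower in that way. Of all genes, 6.74% were higher and 9.05% lower without overlap. Of the neutrophil markers, Ly6g and Elane were not measured. The part of these shifts in the class I values was not tested.

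Genes with the array pattern most like the mean of the 10 members were Otulinl (Pearson r = 0.9995 over 6 arrays), Abhd18, Hadhb, Tbc1d10a and Anapc7 (0.995 to 0.996). They were the 5 highest of all genes outside the pathway, and 6 arrays leave room for many close matches. Otulinl read 7.99, 8.002 and 8.04 in wild-type cells and 7.84, 7.59 and 7.92 in Dnmt3a+/- cells, with the same low replicate 2. Within the 10, Psmb9, H2-D1 and H2-K1 had the highest mean correlation with the other members (0.632, 0.623 and 0.621 over 6 arrays), and Tap2 had a negative one (-0.226). These values share genotype and array and are descriptions.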

How the data were processed

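Total RNA of KLS cells (20 ng, amplified as cDNA and labelled with biotin, per the labels' protocols) was read on 1-colour arrays. The authors deposited intensity values made with RMA in Partek, per the submitters' processing notes; no version, setting or genome build is given in the sources used here. The values were linear, so log2 was taken with no pseudocount. Probe sets were named where the platform annotation gave 1 symbol (318760 of 1256831), updated through RefSeq (18006 symbols current, 4227 updated, 63 kept). Probe sets above the median level (log2 5.89) were averaged per gene.

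The genotype comparison used limma (version 3.58.1, R 4.3.3; lmFit, eBayes, two-sided, no covariate), with Benjamini-Hochberg adjustment over 20059 genes or 628415 probe sets, and the code was tested on simulated data. Single values had exact permutation tests. The number of arrays limits the precision. Replicate numbers were not taken to pair arrays (same-number correlations of deviations -0.048, -0.091 and 0.11).

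The members, lists and naming rule (10 members, Dnmt3a, the 3 constitutive partners, the 3 smallest p per list, the 5 most alike genes) were chosen with earlier results of these data known. Genes outside the rule are named as chosen by their values.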

Additional observations from a re-analysis of the deposited data

How the results depend on the processing

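The alternatives were no filter or one at the 75th percentile, the median of probe sets, cyclic loess, a second quantile normalization, an offset of 16, array weights, a variance trend with robust estimation, the replicate block, and leaving out each array. No gene passed adjusted p 0.05 under any of them (limma, 0 genes, with 1502 at an unadjusted p under 0.05 in the reported fit). The members' median difference stayed between -0.21 and -0.095. H2-K1, H2-D1, B2m, Tap1, Psmb8, Psmb9 and Nlrc5 were negative throughout. The count of non-overlapping lower members was 3 with the 75th percentile filter (H2-K1, H2-D1, Nlrc5), 2 with the median of probe sets (B2m, Psmb9) and 5 to 6 without any 1 array, where 12.5% to 17.2% of all genes were so, against 9.05% with all. Psmb9 minus Psmb6 was -0.43 with the 75th percentile filter and -0.76 to -0.55 without any 1 array. The cause was not tested. Tap2 turned to 0.024 with the 75th percentile filter, 0.23 with the median of probe sets, 0.014 after cyclic loess and 0.015 after a second quantile normalization. Leaving out 1 array gave -0.080 to 0.035 for Tap2, -0.17 to 0.11 for Psmb10 and -0.30 to 0.044 for Tapbp. Psmb10 turned to 0.010 after cyclic loess and 0.027 with array weights. With the replicate block 0 genes passed, the members' median stayed at -0.16, and member adjusted p-values were 0.714 or more (limma). The block changed no call after adjustment, and at an unadjusted p under 0.05 it gave 5 member probe sets in place of 9 and 6 pathway genes in place of 8. Of 151 member probe sets, 4 were below the filter. Low signal also limits some that were kept, such as Psmb9 probe set 4430718. It read 3.29 on Dnmt3a+/- replicate 2, under the filter level of log2 5.89.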
